A study of Mus musculus with 8 samples.

Results

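The transforming growth factor beta (TGF-beta) ligands and receptors and a set of transcription factors of epithelial-mesenchymal transition (EMT) were examined in mouse kidney tubuloids. The 10 genes were taken by symbol from the 24063 genes of the count files: the ligands Tgfb1, Tgfb2 and Tgfb3, the receptors Tgfbr1, Tgfbr2 and Tgfbr3, and the factors Snai1, Snai2, Twist1 and Zeb1. All 10 were detected in all 8 libraries, with 139 to 25830 counts per gene and library, and all 10 were tested. Tgfbr2, Snai2, Tgfb3 and Tgfb1 were the most abundant per transcript length, and Tgfb2, Zeb1, Twist1, Snai1 and Tgfbr3 the least. None of the 10 genes was called different between treated and control tubuloids, and the largest difference, a lower level of Tgfbr1 with treatment, did not pass the test.

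Tubuloids are tubule-like structures grown in Matrigel from fragments of postnatal mouse kidney, here from mice labelled as day 7 to day 10 after birth (the methods of the study give a somewhat younger range). All cultures, controls included, carried the same alleles: floxed Pkd2, Pax8rtTA, TetOCre and the membrane reporter mTmG. By the study's general culture method, they were plated in medium with glial-derived neurotrophic factor. They stayed in medium with hepatocyte, epidermal and fibroblast growth factors and serum. Doxycycline (DOX) was given to 4 cultures and dimethyl sulfoxide (DMSO), the vehicle, to 4 others, from day 3 for 3 days, and RNA was taken on day 7. The question was how the transcriptome differs shortly after Cre induction, when Pkd2, the gene of polycystin-2, begins to be lost. Cre is induced in cells that express Pax8, that is in tubule epithelium, so stromal cells of the same culture are not direct targets, and recombination was heterogeneous among cells. Libraries are named by group and by the number in their label (DMSO 3, 5, 15 and 20; DOX 9, 12, 19 and 21). No number occurs in both groups, so the comparison was unpaired. The replicates were described as cultures, and p-values therefore measure the spread between cultures.

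TGF-beta ligands are secreted in a latent form, held in the matrix, and released before they act. Active ligand binds TGFBR2, which recruits and phosphorylates TGFBR1, and TGFBR1 in turn phosphorylates SMAD2 and SMAD3, which enter the nucleus with SMAD4. In kidney the pathway is known above all for fibrosis and for driving epithelial cells toward a mesenchymal state, in which factors of the SNAIL, TWIST and ZEB families bind short E-box sequences and repress epithelial genes such as Cdh1.

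Promoter sequence was printed for a receptor and a factor. These are Tgfbr1, which had the largest difference between the groups among the 10 genes, and Snai1, a factor that reads E-boxes. Each line gives the 250 bases before the start of the gene, from RefSeq on GRCm38.p6, in the direction of transcription. The Tgfbr1 window is chr4:47352972-47353221 on the plus strand, and its capitals mark 2 GC boxes (GGGCGG), beginning 133 and 95 bases before the start. The Snai1 window is chr2:167537945-167538194 on the plus strand, and its capitals mark 1 E-box (CACCTG), beginning 126 bases before the start.
Tgfbr1: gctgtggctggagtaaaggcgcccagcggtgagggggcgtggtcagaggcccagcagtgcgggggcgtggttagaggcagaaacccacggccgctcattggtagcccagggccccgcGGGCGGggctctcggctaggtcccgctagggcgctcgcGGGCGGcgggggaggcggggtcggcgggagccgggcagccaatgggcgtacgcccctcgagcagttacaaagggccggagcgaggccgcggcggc
Snai1: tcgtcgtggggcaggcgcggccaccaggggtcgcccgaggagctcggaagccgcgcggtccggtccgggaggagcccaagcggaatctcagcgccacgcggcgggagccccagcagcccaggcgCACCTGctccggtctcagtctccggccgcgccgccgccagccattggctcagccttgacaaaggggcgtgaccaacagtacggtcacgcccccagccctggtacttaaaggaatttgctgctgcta
The E-box letters CAGGTG, searched on both strands (CACCTG on the other), occurred in 17.2% of 32851 promoters of the same length, and GGGCGG, searched with CCGCCC, in 32.7%. Among the 10 genes, matches were counted in 7 windows of 6 genes (Tgfb1, Tgfb2, Tgfbr1, Tgfbr2, Snai1 and Twist1), 2 of them for Tgfbr1. No window of Tgfb3, Tgfbr3, Snai2 or Zeb1 entered these counts, so they say nothing of the promoters of those genes. The E-box occurred in 1 of the 7 windows, that of Snai1, and the GC box in 3, those of Tgfbr1, Tgfb1 (5 matches) and Twist1 (1 match). A match describes the letters and is not a site.

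Libraries held 63922677 to 102716313 counts summed over transcripts, or 39252852 to 64561669 when only the most counted transcript of each gene was taken. DMSO 20 and DOX 19 stood apart with 13243 and 13599 detected genes, against 17054 to 17903 in the other 6. DMSO 15 stood apart in its marker levels, with the highest summed level of stromal markers (2791 TPM, the deposited level scaled to transcript length and to library total, against 431 to 1171 in the other 7 libraries) and the lowest of tubule markers (472 TPM against 614 to 2128). The collagen genes Col1a1, Col1a2 and Col3a1 made up 77.1% of its stromal sum, and without them it had 640 TPM, close to DOX 12 (628 TPM) and DOX 21 (625 TPM). Of the 12 stromal markers, 7 were highest in DMSO 15, and the 5 others, Pdgfra, Pdgfrb, Tcf21, Meis1 and Rgs5, were highest elsewhere. The targeted gene Pkd2 did not separate the groups. Its normalised counts (counts divided by the DESeq2 size factor of the library) had a mean of 6130 with an SD of 1114 in the 4 DMSO libraries and of 4946 with an SD of 772 in the 4 DOX libraries. By an exact two-sided permutation test over libraries p was 0.143, and 0.0286 is the smallest p this design allows. Reads of the floxed exons are not told apart from others in whole-transcript counts. The study reports less polycystin-2 protein in tubuloids given doxycycline, though some remained, and RNA counts do not measure protein.

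Per transcript length, the 10 genes covered a wide range of levels. Tgfbr2 had the highest TPM, with a mean of 100.1 over 8 libraries and values from 74.97 to 161. It has 2 transcripts in the files, of 4713 and 4788 bases, whose counts were nearly the same in every library (8426 and 8427 in DMSO 15, for example), so reads shared by them appear to be counted for each. With only 1 of its transcripts the mean was 49.6 TPM, which would place Tgfbr2 between Tgfb3 and Tgfb1. The 9 other genes have 1 transcript each. Snai2 followed with a mean of 71.9 TPM, then Tgfb3 with 53.6, Tgfb1 with 45.3 and Tgfbr1 with 20.5. The lower levels belonged to Tgfb2 (7.75), Zeb1 (7.17), Twist1 (6.59), Snai1 (6.41) and Tgfbr3 (4.99).

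**Figure D1:**
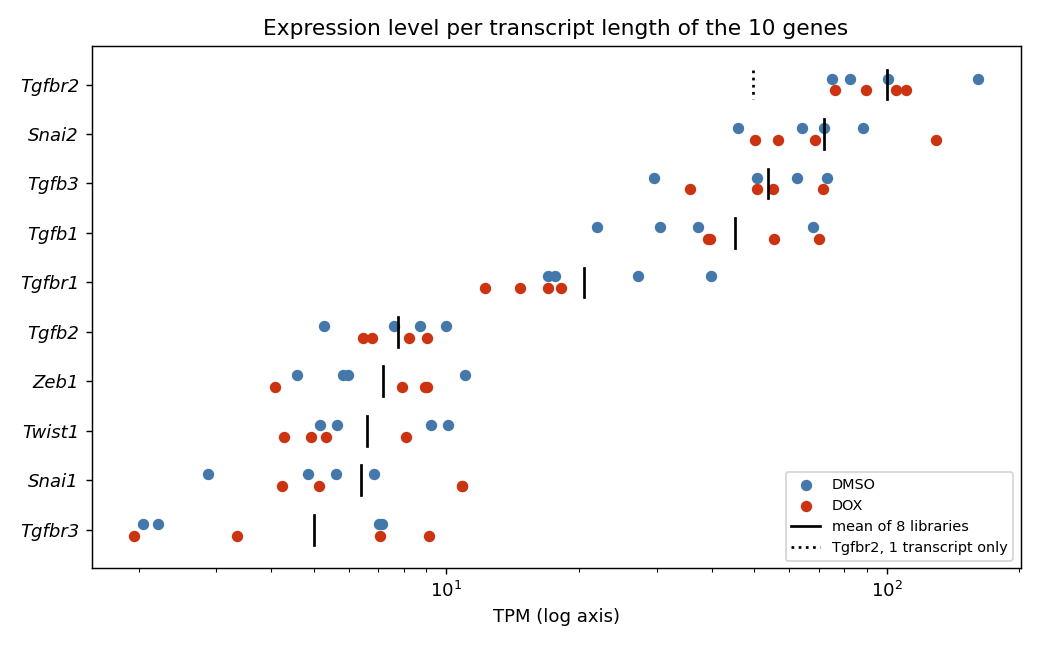
TPM of each of the 10 genes in each library (log axis; blue, 4 DMSO libraries; red, 4 DOX libraries; black bar, mean of 8; dotted bar, mean of Tgfbr2 with 1 transcript). Tgfbr1 (12.2 to 39.9 TPM) lies wholly above Tgfb2 (5.28 to 9.96 TPM), whereas Tgfb2, Zeb1, Twist1, Snai1 and Tgfbr3 lie within each other's spread.

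Only some neighbours in this order were separated in every library. Tgfb1 was above Tgfbr1 in 8 of 8 libraries, and Tgfbr1 above Tgfb2 in 8 of 8. Snai2 was above Tgfb3 in 5 of 8 and Tgfb3 above Tgfb1 in 5 of 8, so these neighbours did not differ beyond their spread. At the lower end, Tgfb2 was above Zeb1 in 3 of 8, Zeb1 above Twist1 in 5 of 8, Twist1 above Snai1 in 4 of 8 and Snai1 above Tgfbr3 in 6 of 8. These 5 genes thus had no stable order.

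Ligand transcripts came mainly from Tgfb3 and Tgfb1. The summed TPM of the 3 ligands was 96.6, 56.8, 111 and 140 in DMSO 3, 5, 15 and 20 and 97.1, 119, 114.9 and 117 in DOX 9, 12, 19 and 21. The DOX values lay inside the DMSO range, and DMSO 5 was the lowest. Tgfb3, a ligand known for its part in palate and lung development, made up 31.1% (DOX 19) to 65.8% (DMSO 15) of this sum. Tgfb1, the isoform most often linked to fibrosis, made up 27.4% (DMSO 15) to 61.0% (DOX 19). Tgfb2, needed for normal kidney and heart development, made up 5.52% to 9.30%. The order of Tgfb1 and Tgfb3 thus turned around between DMSO 15 and DOX 19, and in the other 6 libraries the TPM ratio of Tgfb1 to Tgfb3 was 0.549 to 1.09.

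**Figure D2:**
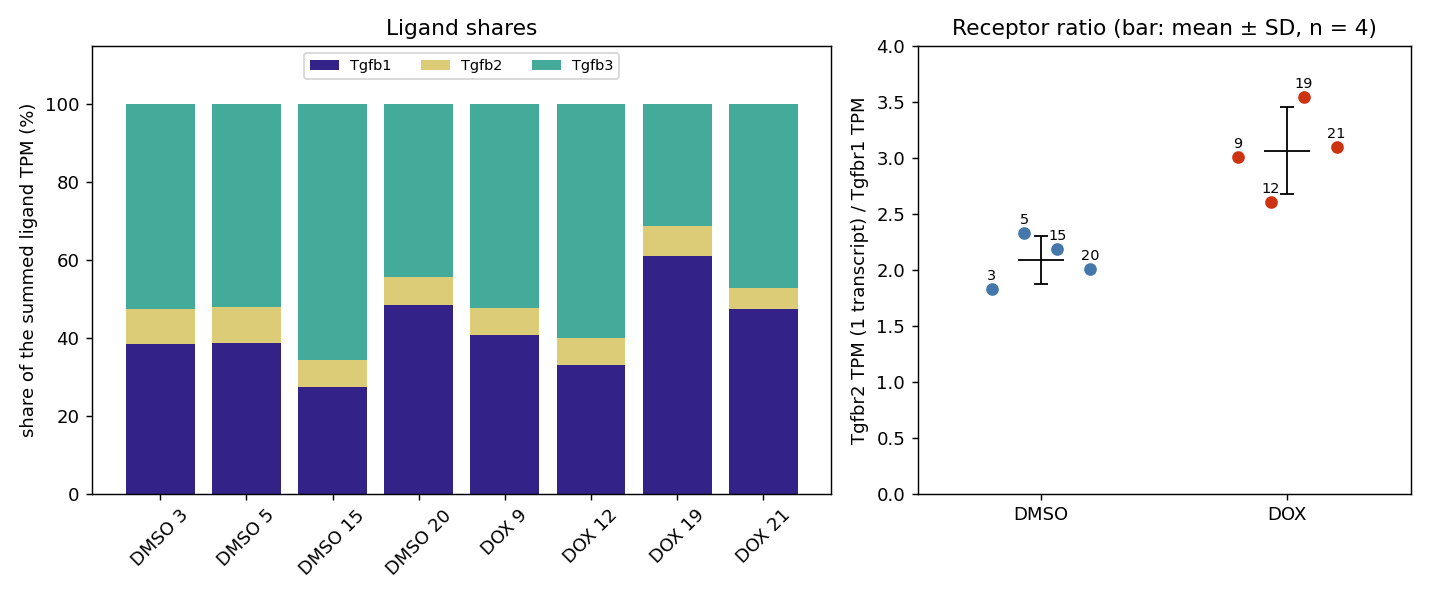
Left, share of the summed ligand TPM (%) held by Tgfb1, Tgfb2 and Tgfb3 in each library; right, ratio of Tgfbr2 TPM (1 transcript) to Tgfbr1 TPM (points, libraries; bars, mean ± SD, n = 4). Tgfb2 held under 10% in every library. The receptor ratio, picked with its values in view and not tested, was 1.83 to 2.33 in DMSO and 2.61 to 3.55 in DOX libraries.

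No ligand separated DOX from DMSO. Tgfb1 (Entrez 21803, chromosome 7, 25687002 to 25705077, GRCm38) had normalised counts of 3659.7, 1704, 3037 and 5562 in DMSO 3, 5, 15 and 20 and of 3466, 2838.5, 6281 and 4829.9 in DOX 9, 12, 19 and 21. The highest value in each group came from the libraries with few detected genes, DMSO 20 and DOX 19, and the groups overlapped. Its log2 fold change, DOX over DMSO, was 0.32 (SE 0.432; adjusted p of 0.999 in DESeq2) and 0.42 without those libraries. Single libraries moved it further, to 0.09 without DMSO 5, 0.10 without DOX 19 and 0.63 without DMSO 20. Tgfb2 (Entrez 21808, chromosome 1, 186622787 to 186709697) had DMSO values between 924 and 1935 normalised counts and DOX values between 1272 and 1825, with a log2 fold change of -0.15 (SE 0.302) that was -0.33 without DMSO 5 and -0.04 without DMSO 3. Its lowest value was again in DMSO 5, and DOX values lay inside the DMSO range.

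Tgfb3 (Entrez 21809, chromosome 12, 86056743 to 86079041) had 8071, 3706, 11772 and 8241 normalised counts in DMSO 3, 5, 15 and 20 and 7167, 8357, 5180.2 and 7781 in DOX 9, 12, 19 and 21. It was highest in DMSO 15 and lowest in DMSO 5, the libraries with the highest and the lowest summed stromal TPM, and the DOX values lay inside the DMSO range. The log2 fold change of -0.16 (SE 0.378; adjusted p of 0.999 in DESeq2) turned to 0.10 without DMSO 15. Stromal markers as a cause of this were not tested, and in bulk RNA fewer cells of a type and less RNA per cell cannot be told apart.

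Tgfbr1 was the member with the largest difference between the groups. This gene (Entrez 21812, chromosome 4, 47353222 to 47414926) encodes the type I receptor kinase, also called ALK5, that passes the signal to SMAD2 and SMAD3. Its normalised counts were 7251, 3699.6, 4573 and 8831 in DMSO 3, 5, 15 and 20 and 4312, 3335, 3558 and 2884 in DOX 9, 12, 19 and 21. DMSO 3, DMSO 15 and DMSO 20 were above all DOX libraries, and the groups overlapped through DMSO 5, which was below DOX 9. Group means were 6089 ± 2372 for DMSO and 3522 ± 596 for DOX (SD, n = 4 each), and the log2 fold change was -0.79 (SE 0.336, 95% interval -1.45 to -0.13), or 57.9% of the DMSO level. The difference did not pass the test: the unadjusted p of 0.0189 became 0.787 after Benjamini-Hochberg adjustment over all genes in DESeq2, and the edgeR adjusted p was 0.999. Across all genes, 2.47% had an unadjusted DESeq2 p under 0.05 with lower values in DOX libraries. Leaving out DMSO 20 reduced the log2 fold change to -0.56 (adjusted p of 0.772 in DESeq2), and leaving out DMSO 20 with DOX 19 to -0.54 (adjusted p = 0.871).

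Tgfbr2 (Entrez 21813, chromosome 9, 116087695 to 116175363), the type II receptor kinase that binds ligand, had 22451, 14546, 16908 and 29899 normalised counts in DMSO 3, 5, 15 and 20. In DOX 9, 12, 19 and 21 it had 21928, 14679.5, 21326 and 15096. DMSO 20 was the highest library, and all DOX values lay inside the DMSO range. The log2 fold change was -0.20 (SE 0.306; adjusted p of 0.999 in DESeq2) and turned to 0.02 without DMSO 20.

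Both signalling receptors were highest in DMSO 20, and within each group their ratio varied less than either of them. On the TPM scale with 1 Tgfbr2 transcript, Tgfbr2 over Tgfbr1 was 1.83, 2.33, 2.19 and 2.00 in DMSO 3, 5, 15 and 20 and 3.01, 2.61, 3.55 and 3.10 in DOX 9, 12, 19 and 21. All DOX libraries were above all DMSO libraries. The log2 ratio differed by 0.55 between the groups, and by 0.46 without DMSO 20 and DOX 19. This ratio was picked with its values in view, among 45 pairs of the 10 genes, which share genes and libraries, so it carries no test. The groups did not overlap for 2 of the 45 pairs, and the other was Tgfb1 against Tgfbr1, with a log2 ratio of normalised counts of -0.84 ± 0.25 for DMSO and 0.25 ± 0.61 for DOX (SD, n = 4 each). Both pairs hold Tgfbr1. The share of such pairs among pairs of all genes was not computed. Among single genes, an unlike measure, the groups did not overlap for 2.71% of 17633 genes.

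Tgfbr3 (Entrez 21814, chromosome 5, 107106567 to 107289629), or betaglycan, a co-receptor that presents ligand to TGFBR2, was the most variable of the 10 genes. Normalised counts were 582, 1572, 2055 and 522 in DMSO 3, 5, 15 and 20 and 844, 1480.0, 505 and 2307 in DOX 9, 12, 19 and 21. Each group held low and high libraries, and the lowest of each group were DMSO 20 and DOX 19. The highest and the lowest library differed 4.56-fold, against 2.06-fold for Tgfbr2. The log2 fold change was 0.12 (SE 0.630; adjusted p of 0.999 in DESeq2), with an interval from -1.12 to 1.35 that leaves room for a change of more than 2-fold in each direction. It turned to -0.32 without DOX 21, -0.13 without DMSO 20 and -0.10 without DMSO 3, and was 0.53 without DMSO 15.

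**Figure D3:**
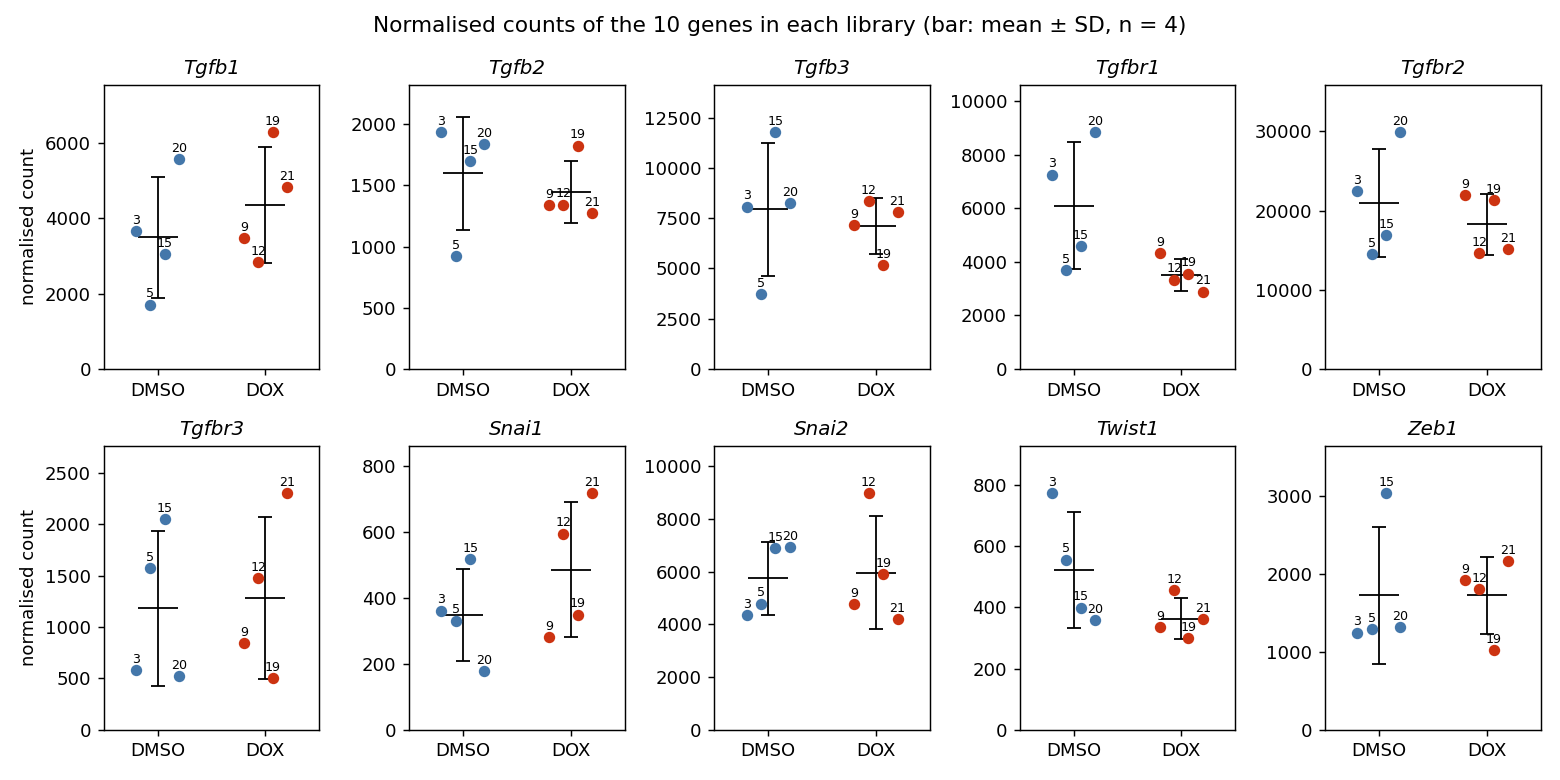
Normalised counts of the 10 genes in each library (points with library numbers; blue DMSO, red DOX; bars, mean ± SD, n = 4; each panel has its own axis from 0). The groups overlap in all 10 panels, and Tgfbr1 has its highest values in DMSO 20 (8831) and DMSO 3 (7251).

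Among the EMT factors, Snai2 supplied most of the transcripts. SNAI2, also called SLUG, represses epithelial genes through E-boxes and is also made by mesenchymal cells. On the TPM scale it held 66.7% to 86.0% of the sum of the 4 factors in every library. Snai2 (Entrez 20583, chromosome 16, 14705852 to 14709395) had 4344, 4779.9, 6891 and 6934 normalised counts in DMSO 3, 5, 15 and 20 and 4756, 8979.7, 5903 and 4209 in DOX 9, 12, 19 and 21. DOX libraries held both the highest and the lowest value. The log2 fold change was 0.06 (SE 0.327; adjusted p of 0.999 in DESeq2), and it turned to -0.21 without DOX 12.

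Snai1 (Entrez 20613, chromosome 2, 167538195 to 167542814), the related repressor of which the promoter is shown above, was far lower. Its normalised counts were 361, 331, 517 and 178 in DMSO 3, 5, 15 and 20 and 281, 594, 349 and 717 in DOX 9, 12, 19 and 21. DOX 21 and DOX 12 were the highest libraries, DMSO 20 was the lowest, and the groups overlapped. The means were 347 ± 139 and 485 ± 205 (SD, n = 4 each). DOX over DMSO, this came to a log2 fold change of 0.48 (SE 0.469; adjusted p of 0.999 in DESeq2), with values from 0.24 without DOX 21 to 0.75 without DMSO 15 when 1 library was left out. On the TPM scale, Snai2 exceeded Snai1 by 9.49 to 13.4 times in 6 libraries, by 30.7 times in DMSO 20 and by 4.63 times in DOX 21.

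Twist1 (Entrez 22160, chromosome 12, 33957671 to 33959831), a helix-loop-helix factor of mesenchyme, had 774, 556, 399 and 359 normalised counts in DMSO 3, 5, 15 and 20 and 335, 456, 299 and 362 in DOX 9, 12, 19 and 21. DMSO 3 and DMSO 5 were above all DOX libraries, whereas DMSO 15 and DMSO 20 lay among them. The log2 fold change was -0.52 (SE 0.340; adjusted p of 0.999 in DESeq2). With 1 library left out it ran from -0.27 without DMSO 3 to -0.67 without DMSO 20, where the adjusted p was 0.685 and the unadjusted p 0.0470 in DESeq2. Zeb1 (Entrez 21417, chromosome 18, 5591327 to 5775468), a zinc finger repressor of epithelial genes, had 1247, 1288, 3038 and 1318 normalised counts in DMSO 3, 5, 15 and 20 and 1917, 1808, 1016 and 2161 in DOX 9, 12, 19 and 21. DMSO 15 stood well above the other DMSO libraries, and the group means were nearly equal, at 1723 and 1726. Its log2 fold change of 0.0026 (SE 0.417; adjusted p of 0.999 in DESeq2) became 0.43 without DMSO 15.

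Counted together, 0 of the 10 genes were called by DESeq2, where a call needs an adjusted p no higher than 0.05 together with a 1.5-fold or larger difference. Over all genes with an adjusted p, 25 of 17011 were called (0.147%). Before adjustment, 1 of the 10 genes, Tgfbr1, and 4.67% of 19268 genes had a p under 0.05. The edgeR and limma-voom tests gave the same counts for the 10 genes, 0 called and 1 (Tgfbr1) at an unadjusted p under 0.05, and over 15562 genes each called 0 (0.0%), with 3.06% and 3.07% at an unadjusted p under 0.05. With DOX, 5 genes were higher and 5 lower, and the median log2 fold change was -0.07, the same as over all genes tested (-0.07). The groups overlapped for all 10 genes. The standard errors of the log2 fold changes were 0.302 to 0.630, against a median of 0.492 over all genes. At that precision a 1.5-fold difference was not excluded for any of the 10 genes, and Tgfb2, with the narrowest interval, allowed 0.600 to 1.36 times the DMSO level.

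**Figure D4:**
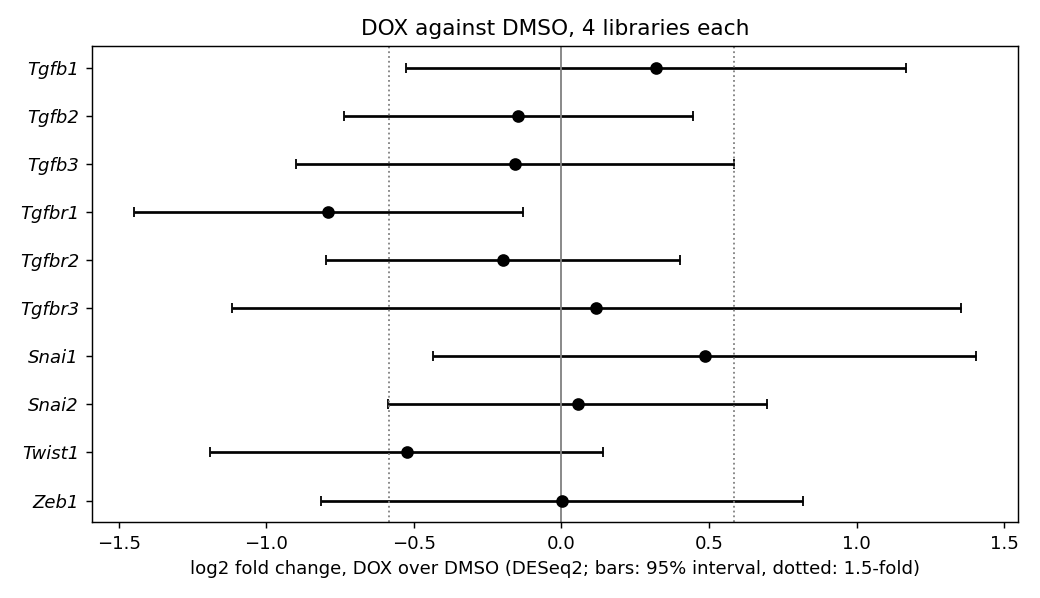
Log2 fold change, DOX over DMSO, of the 10 genes with its 95% interval from DESeq2 (4 libraries each; dotted lines, a change of 1.5-fold). The interval of Tgfbr1 (-1.45 to -0.13) lies below 0 before adjustment, and the other 9 intervals include 0.

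Some of the highest and lowest values fell in libraries with high or low marker sums. Summed stromal and mural markers (12 genes, of which the 3 collagens gave 35.7% to 77.1% of the sum) were 1095, 431, 2791 and 930 TPM in DMSO 3, 5, 15 and 20 and 898, 1171, 662 and 1066 TPM in DOX 9, 12, 19 and 21. Summed tubule markers (8 genes, none at 0 in any library) were 2128, 2090, 472 and 973 TPM and 1424, 1170, 996 and 614 TPM in the same order. The ranges of DOX and DMSO overlapped for both lists. On the mean log2 normalised count of the stromal markers, DMSO 15 was again the highest (13.76), but DMSO 20 (10.65) and DOX 19 (10.71), with few detected genes, were the lowest. Zeb1, Tgfb3 and the stromal sum each had their highest value in DMSO 15. In DOX 19, which had both the lowest stromal sum and the fewest detected genes of the DOX libraries, Zeb1, Tgfb3, Tgfbr3 and Twist1 had their lowest and Tgfb1 and Tgfb2 their highest value of that group. The part of cell makeup or of gene detection in the levels of the 10 genes was not tested.

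**Figure D5:**
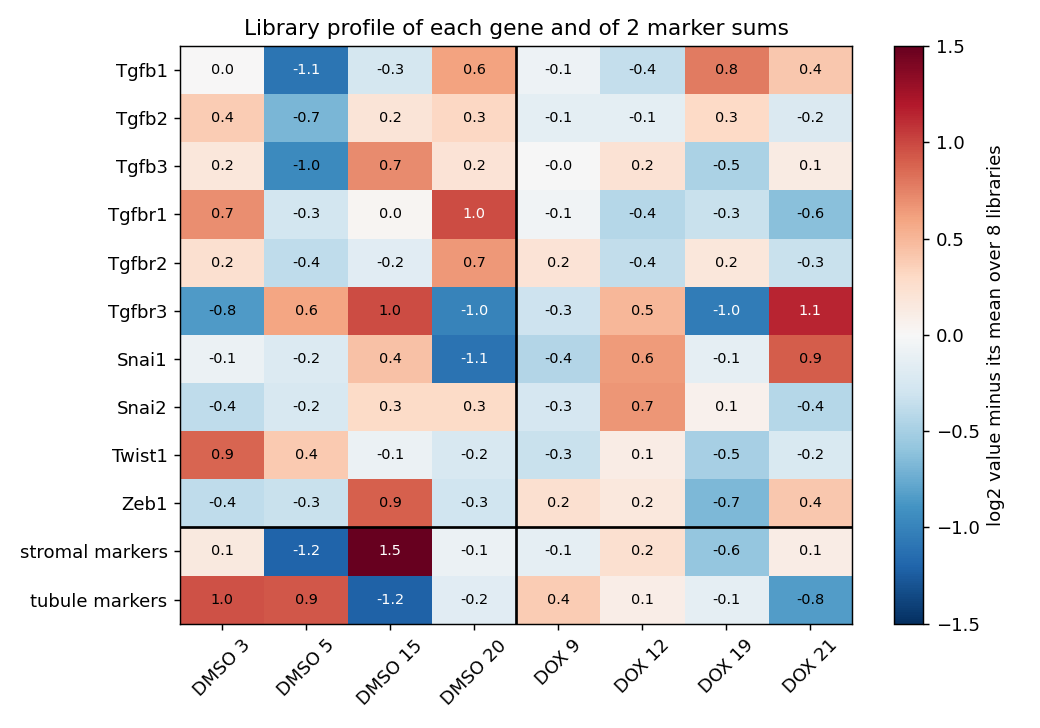
Log2 normalised count of each of the 10 genes, and log2 summed TPM of stromal and tubule markers, minus its mean over 8 libraries (red above, blue below the mean; the vertical line parts DMSO from DOX). Zeb1 and Tgfb3 share their highest library, DMSO 15, with the stromal markers, and Tgfbr1 and Tgfbr2 are highest in DMSO 20.

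RNA of other cell types was low or unevenly spread. Defining endothelial genes (Pecam1, Cdh5, Kdr, Tek and Tie1) were at 0.70 TPM or less in every library, and the endothelial sum of 64.3 to 205 TPM came from Emcn, Flt1 and Egfl7. The 8 macrophage markers summed to 14.8 to 40.3 TPM in DMSO and 5.23 to 15.8 TPM in DOX libraries, with up to 6 of the 8 at 0. The 6 podocyte markers reached 441 TPM in DOX 21, the library with the highest Tgfbr3 and Snai1, against at most 168 TPM in the other 7. Mesothelial markers summed to 242 to 857 TPM in DMSO and 247 to 514 TPM in DOX libraries, mostly from Krt19, which tubule cells also express.

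Genes that store and release latent TGF-beta were expressed, and none passed the test. Of 12 such genes, 5 were higher and 7 lower with DOX, 0 were called and 0 had an unadjusted p under 0.05, with a median log2 fold change of -0.41. For this and the lists that follow, the values over all genes were 44.4% higher, 0.147% called, 4.67% at an unadjusted p under 0.05 and a median of -0.07. The median of the 12 storage and release genes was -0.02 without DMSO 20, -0.10 without DMSO 15 and -0.86 without DOX 19. Thbs1, thrombospondin-1, an activator of latent TGF-beta, had the highest level (mean 185 TPM) and the smallest p. Its normalised counts were 42324, 17899, 186973 and 24792 in DMSO 3, 5, 15 and 20 and 32761, 28138, 27635 and 15198 in DOX 9, 12, 19 and 21. DMSO 15 was far above all other libraries, and the log2 fold change of -1.39 (SE 0.722; adjusted p of 0.955 in DESeq2) became -0.12 without it.

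Neither the other receptors of the family nor the SMAD genes held a called gene. Among 10 other receptors, co-receptors and decoys, 6 were higher and 4 lower, with a median log2 fold change of 0.30 that was 0.16 without DMSO 20 and 0.04 without DMSO 20 and DOX 19. Summed over transcripts, Acvr1, a type I receptor of BMP and activin signalling, had the highest level of these (mean 56.3 TPM), but with its most counted transcript alone it had 17.3 TPM, below Bmpr1a with 47.1. Bmpr1a, a BMP receptor, had the smallest p (log2 fold change -0.37, SE 0.197; adjusted p of 0.986 in DESeq2). Of 13 tested SMAD genes and regulators, 9 were higher and 4 lower, with a median of 0.12 that ranged from 0.06 (without DMSO 20) to 0.19 (without DOX 9). Tgif1, a SMAD corepressor, had the highest level (mean 452 TPM summed over transcripts, 90.1 with its most counted transcript alone), and Smurf1, a ubiquitin ligase that targets receptors and SMADs, the smallest p (log2 fold change 0.35, SE 0.233; adjusted p of 0.999 in DESeq2). Smad9 had no p after the Cook's distance filter, with 2160.1 normalised counts in DMSO 20 and at most 75.4 in the other 7 libraries.

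Textbook response genes of TGF-beta differed in direction, and none was called. Of 17 genes, 6 were higher and 11 lower with DOX, 0 were called, and 1 higher and 2 lower genes had an unadjusted p under 0.05, against 4.67% of all genes in both directions and 2.47% lower. The median of -0.46, against -0.07 over all genes, turned to 0.09 without DMSO 15. Tgfbi, a secreted matrix protein named for its induction by TGF-beta, had the smallest p. Its normalised counts were 18484, 12729, 14355 and 17605 in DMSO 3, 5, 15 and 20 and 44987, 41491, 14628 and 62306 in DOX 9, 12, 19 and 21. DOX 9, 12 and 21 were above all DMSO libraries, and DOX 19, with few detected genes, lay among them. The log2 fold change of 1.37 (SE 0.431; adjusted p of 0.266 in DESeq2 and 0.999 in edgeR) did not pass the test. Without DOX 19, the only DOX library inside the DMSO range, it was 1.66 (adjusted p of 7.7e-06 in DESeq2). Without DMSO 20 and DOX 19 it was 1.73 (adjusted p = 2.3e-05 in DESeq2). Both fits take out the overlap of the groups, so they are no test of a difference. Leaving out any other single library gave an adjusted p of 0.234 (without DMSO 15) to 0.599 (without DOX 9) in DESeq2. Fn1, fibronectin, had the highest level of these genes when summed over transcripts (mean 1328 TPM), but 183 TPM with its most counted transcript alone, below Tagln with 373. It had a log2 fold change of -0.24 (SE 0.523) that turned to 0.23 without DMSO 15. Both lower genes with an unadjusted p under 0.05, Col1a1 and Tagln, are also made by stromal and mural cells and rested on DMSO 15. Without it the log2 fold change of Col1a1 went from -1.85 to -0.31 and that of Tagln from -1.86 to -0.08. Of the list, 9 of the 17 genes stand in another list used here.

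None of the other EMT factors was called. Of 10 tested factors, 6 were higher and 4 lower, with 1 lower gene (Klf8) at an unadjusted p under 0.05, against 2.47% of all genes, and a median of 0.07. That median turned to -0.19 without DMSO 5, -0.12 without DOX 9, -0.06 without DMSO 20 and -0.04 without DMSO 3. Tcf3, which encodes the E-box factors E12 and E47, had the highest level (mean 434 TPM summed over transcripts, 54.6 with its most counted transcript alone). Klf8 had the smallest p, with a log2 fold change of -2.96 (SE 1.07; adjusted p of 0.520 in DESeq2). This rested on DMSO 20, with 1496 normalised counts against 10.2 to 175 in the other 7 libraries, and the log2 fold change was -0.93 without it.

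Genes of epithelial state were lower with DOX in 15 of 16 cases, but none passed the test. The list held junction genes, keratins and epithelial regulators that EMT factors repress, its median log2 fold change was -0.51 against -0.07 over all genes, and 0 genes had an unadjusted p under 0.05. Over all genes, 44.4% were higher with DOX. Krt18 was the most abundant (mean 371 TPM; log2 fold change -0.25, SE 0.475), and Krt8, its keratin partner, had the smallest p (log2 fold change -0.74, SE 0.459; adjusted p of 0.999 in DESeq2; -0.27 without DMSO 3). Over the fits that left out 1 library the median stayed below 0, from -0.83 without DOX 9 to -0.22 without DMSO 5. The 8 tubule markers had log2 fold changes below 0 (median -0.53), with Pax8 at -0.0023. With 1 library left out, their median ran from -0.81 without DMSO 15 to -0.06 without DMSO 5. Of these markers, 4 stand in the epithelial list, so the counts of both lists overlap.

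Among the mesenchymal genes, none passed the test either. Of 11 tested genes, 4 were higher and 7 lower, 0 were called (0.147% of all genes), and the median was -0.24 against -0.07 over all genes. The median of the mesenchymal list turned to 0.25 without DMSO 15 and to 0.09 in limma-voom. Lox, lysyl oxidase, which crosslinks collagen, had no p in DESeq2 after the Cook's distance filter. It had 113798 normalised counts in DMSO 15 against 390.01 to 7123 in the other 7 libraries, and its log2 fold change of -3.81 (adjusted p of 0.999 in edgeR, unadjusted 0.0329) was -0.44 without DMSO 15. Sparc, a matrix glycoprotein, had the highest level (mean 2527 TPM summed over transcripts, 1263 with its most counted transcript alone; log2 fold change 0.14, SE 0.503). Acta2, smooth muscle actin, had the smallest p, with 148049 normalised counts in DMSO 15 against 3882 to 25931 in the other 7 libraries. Its log2 fold change of -1.47 (SE 0.889; adjusted p of 0.999 in DESeq2) turned to 0.19 without DMSO 15.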

How the data were processed

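RNA from 8 tubuloid cultures was sequenced by the authors as poly-A selected SMART-Seq v4 libraries with paired-end reads. Per the study's methods and the submitters' processing notes, reads were aligned with STAR to mm10 (GRCm38) and counted with featureCounts; versions and counting settings were not given in the sources used here. The deposited count tables hold whole reads for each RefSeq transcript, not normalized. The deposited FPKM divides these by length and depth and was not tested. The deposited TPM, FPKM brought to the same sum in all libraries, served only to describe levels.

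Transcripts were added up by symbol (33068 transcripts, 24063 genes). The main test was DESeq2 1.42.0 (Wald test, R 4.3.3) on all genes, with no covariate, independent filtering at alpha 0.1, the Cook's distance filter, and p-values adjusted after Benjamini and Hochberg. Calls required an adjusted p no higher than 0.05 together with a 1.5-fold or larger difference. The alternatives were edgeR 4.0.16, limma-voom (limma 3.58.1), TMM scaling, low-count filters, other thresholds, the most counted transcript only, and leaving out libraries. Fits were tested on simulated data. Described one by one were the 10 genes, Pkd2, and from each other pathway list the most abundant gene, the gene with the smallest p and any called gene, besides the genes nearest in course to each of the 10, 1 of which is not reported here. Smad9, Lox, Col1a1 and Tagln are given outside this rule, with their values seen. The members and lists were chosen with earlier results of these data known. Coordinates and promoters are from RefSeq on GRCm38.p6. Reads shared with paralogs or overlapping genes could not be traced, since the counting settings are not known.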

Additional observations from a re-analysis of the deposited data

Results flagged for a closer look

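In each group of 4 libraries, the highest and the lowest value were compared with the nearest of the others. Dixon's test at 95% was applied to that gap, as a part of the whole spread of the 4 values. Of 42 groups of values tested, 5 held a value past its limit, where about 1 in 20 is what chance gives, and several come from the same libraries. The normalised count of Zeb1 in DMSO 15 was 3038 against at most 1318 in the other DMSO libraries (gap 0.961 of the range). DMSO 15 also had the highest stromal marker sum (2791 TPM), and the part of stromal cells in this value was not tested. Tgfb2 in DOX 19 had 1825 normalised counts against at most 1343 in the other DOX libraries (gap 0.871). DOX 19 had counts for 13599 genes, against at least 17342 in the other DOX libraries (gap 0.870). The TPM ratio of Snai2 to Snai1 was 30.7 in DMSO 20 against at most 11.4 in the other DMSO libraries (gap 0.910), and 4.63 in DOX 21 against at least 11.9 in the other DOX libraries (gap 0.835). Snai1, the denominator, had its lowest count in DMSO 20 and its highest normalised count in DOX 21.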

How the results depend on the processing

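None of the 10 genes was called under any alternative, in DESeq2, edgeR or limma-voom. Over all genes, the number of calls moved from 25 to 0 in edgeR and in limma-voom (476 and 478 genes at an unadjusted p under 0.05), to 16 with at least 10 counts in every library, to 48 with the Cook's distance filter off, to 40 at an adjusted p of at most 0.1, to 51 without DMSO 20 and DOX 19, and to between 14 (without DMSO 3) and 75 (without DMSO 15) when 1 library was left out. Tgfbr1 was lower with DOX in all 17 alternatives, with a log2 fold change from -0.97 (without DMSO 5) to -0.54 (without DMSO 20 and DOX 19), an adjusted p of at least 0.318 and an unadjusted p under 0.05 in 12 of them, but not without DMSO 3, DMSO 20, DOX 12 or DOX 21, nor without DMSO 20 and DOX 19 together. The log2 fold changes of 5 of the 10 genes and 5 others reversed when 1 library was left out: Tgfb3 ranged from -0.39 to 0.10, Tgfbr2 from -0.34 to 0.020, Tgfbr3 from -0.32 to 0.53, Snai2 from -0.21 to 0.19, Zeb1 from -0.12 to 0.43, Acta2 from -1.85 to 0.19, Fn1 from -0.54 to 0.23, Krt18 from -0.46 to 0.17, Sparc from -0.14 to 0.71 and Tgif1 from -0.30 to 0.14. Zeb1 also reversed in edgeR (-0.0080) and Fn1 in limma-voom (0.063). The cause was not tested. The median of the latency list ranged from -0.86 (without DOX 19) to -0.02 (without DMSO 20). For the 10 genes, 66 of 80 log2 fold changes with 1 library left out and 89 of 90 under other settings kept their direction and stayed uncalled. Pkd2 was lower with DOX in all alternatives, with a difference of -1628 to -761 normalised counts when 1 library was left out. The Tgfbr2 to Tgfbr1 ratio was added after the data were seen, and its log2 difference ran from 0.46 to 0.63. No paired analysis was possible because no library number occurs in both groups. Levels with the most counted transcript alone were added after the data were seen for the genes of the other lists.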

Other observations

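For each of the 10 genes, the genes with the most similar course over the 8 libraries were taken from 13238 genes with a mean normalised count of at least 100. Likeness was the mean absolute difference between log2(normalised count + 1) values, each centred on its own mean over 8 libraries, and is a description of these libraries with no test. Tgfbr2 lay nearest to Ddx3x (0.0633) and Pam (0.102), and Tgfb3 nearest to Itgb1 (0.0760) and Oaf (0.119). Tgfb2 lay nearest to Marcks (0.103) and 5031439G07Rik (0.108), Tgfb1 to Pak1 (0.128) and Ltbp3 (0.152), and Tgfbr1 to Far1 (0.133). Of these, Ltbp3 encodes a latent TGF-beta binding protein and stands in the list of storage and activation genes. Among the factors, Twist1 lay nearest to Casp6 (0.114) and Fam49b (0.144), Snai2 to Mprip (0.158) and Wasf1 (0.175), Zeb1 to Gstk1 (0.159) and Lims1 (0.168), and Snai1 to Sat2 (0.167) and Lhfp (0.209). Tgfbr3 had the most distant nearest genes, Rnase4 (0.335) and 6330549D23Rik (0.340). The median distance to all candidate genes ran from 0.493 for Tgfb2 to 0.885 for Tgfbr3. A gene that stayed flat over the libraries would lie at 0.298 from Tgfb2 and at 0.800 from Tgfbr3, and the nearest of so many candidates are near by selection.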
